A study of Mus musculus with 16 samples.

Results

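The genes described here were 44 mouse genes that type I interferon is known to induce in many cells, taken from a list of names drawn up with earlier results of these data known, with the Ifit, Schlafen and interferon-inducible GTPase families left out. They were followed in the cecal epithelium of gnotobiotic mice, that is, mice raised germ-free and then given known bacteria. Of the 44 genes, 42 had a probe set on the Mouse 430 2.0 GeneChip, out of 19126 genes with one in all. Oas1g and Ifi44 had no annotated probe set. The 42 genes had 75 probe sets, of which 6 also matched other genes, and 21 of the genes had several.

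NMRI mice of 4 groups were compared on a polysaccharide-rich chow diet: germ-free animals (GF), animals mono-associated with Bacteroides thetaiotaomicron (Bt), animals mono-associated with Bifidobacterium longum (Bl), and animals given both species (Bt/Bl). Colonized mice were studied at 10 d and germ-free mice were left untreated; all were young adults, and the study's methods describe them as male. Epithelium was cut from cecal sections by laser capture microdissection, RNA from 4 mice per state was pooled in equal amounts, and each pool was amplified and hybridized 2 times, which gave 8 GeneChips with 2 per state. The paired GeneChips of a state share 1 RNA pool, so all p-values here measure the spread between amplifications of a pool, not between mice. Because RNA of many cells was measured together, a lower signal from fewer cells of a type cannot be told apart from less RNA per cell.

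Type I interferons are secreted proteins that signal through the Ifnar1 and Ifnar2 receptor chains and the kinases Jak1 and Tyk2. A complex that holds Stat2 and Irf9 then binds the interferon-stimulated response element (ISRE) in the promoters of target genes. The products sense viral RNA and DNA, block viral replication, and attach or remove the ubiquitin-like protein Isg15. In the intestinal epithelium the same genes also respond to type III interferon, through Ifnlr1 and Il10rb.

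Promoter sequences are shown for 5 of the genes, because an ISRE core is the feature these genes are known for. Rsad2 is shown as the gene with the largest called difference between Bt/Bl and GF that had a promoter entry. Isg15, Ifih1, Ddx60 and Oas1a were added after their values were seen and because they hold a core: the first 3 had their highest signals on both Bt/Bl GeneChips, whereas Oas1a was high in all 3 colonized states. Each sequence runs from 250 bases before the transcript start to 50 bases after the start, is taken from RefSeq on GRCm38.p6, reads 5′ to 3′ on the strand of the gene, and has each match to the ISRE core GAAANNGAAA, on either strand, in capitals.
Rsad2: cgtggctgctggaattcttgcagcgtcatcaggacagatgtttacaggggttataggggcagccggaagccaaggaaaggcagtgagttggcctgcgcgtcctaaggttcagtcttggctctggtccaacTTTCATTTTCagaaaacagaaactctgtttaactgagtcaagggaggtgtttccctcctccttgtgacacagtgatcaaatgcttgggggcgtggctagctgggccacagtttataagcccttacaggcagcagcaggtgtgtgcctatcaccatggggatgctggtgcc
Isg15: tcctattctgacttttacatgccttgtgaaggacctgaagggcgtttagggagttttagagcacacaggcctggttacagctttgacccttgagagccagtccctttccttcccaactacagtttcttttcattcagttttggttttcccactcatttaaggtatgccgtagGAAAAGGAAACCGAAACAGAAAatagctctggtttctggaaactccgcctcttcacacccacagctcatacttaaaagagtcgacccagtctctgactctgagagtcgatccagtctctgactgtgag
Ifih1: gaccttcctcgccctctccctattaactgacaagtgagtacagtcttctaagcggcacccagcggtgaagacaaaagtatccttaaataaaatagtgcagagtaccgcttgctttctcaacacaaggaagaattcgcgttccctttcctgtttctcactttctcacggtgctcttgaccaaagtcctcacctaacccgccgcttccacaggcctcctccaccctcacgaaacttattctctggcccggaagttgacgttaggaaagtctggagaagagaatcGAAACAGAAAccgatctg
Ddx60: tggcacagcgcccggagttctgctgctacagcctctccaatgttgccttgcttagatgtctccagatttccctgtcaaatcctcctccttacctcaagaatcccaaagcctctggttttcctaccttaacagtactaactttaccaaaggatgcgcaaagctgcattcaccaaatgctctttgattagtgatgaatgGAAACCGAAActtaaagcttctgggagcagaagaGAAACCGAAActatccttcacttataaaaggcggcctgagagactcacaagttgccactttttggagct
Oas1a: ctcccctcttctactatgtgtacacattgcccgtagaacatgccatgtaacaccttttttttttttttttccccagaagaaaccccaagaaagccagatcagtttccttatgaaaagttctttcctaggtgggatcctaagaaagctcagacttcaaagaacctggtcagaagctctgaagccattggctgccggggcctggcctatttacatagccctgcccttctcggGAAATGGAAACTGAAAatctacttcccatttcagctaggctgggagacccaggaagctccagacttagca

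The Rsad2 sequence is chr12:26456403-26456702 on the minus strand, with 1 core on the opposite strand at -120 to -111, counted from the transcript start. The Isg15 sequence is chr4:156200769-156201068 on the minus strand and holds 3 overlapping cores, the first starting at -78 and the last ending at -57. The Ifih1 sequence is chr2:62646206-62646505 on the minus strand, and its core lies after the start, at 32 to 41. The Ddx60 sequence is chr8:61927837-61928136 on the plus strand, with cores starting at -53 and -19. The Oas1a sequence is chr5:120907476-120907775 on the minus strand, with 2 overlapping cores, the first starting at -20 and the last ending at -5.

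Across the table, 30 of the 44 genes had at least 1 promoter entry and 39 promoters in all. The ISRE core occurred in 13 of these 39 promoters (33.3%), belonging to 12 genes, against 1131 of all 32851 promoters (3.44%). The core TTCNNNGAA of the gamma-activated site (GAS), an element of cytokine-responsive promoters, occurred in 7 of the 39 promoters (17.9%) against 2726 of all promoters (8.3%). In Oas1a, Bst2 and Eif2ak2 both cores were present. Of 9 genes with a promoter entry and both Bt/Bl GeneChips highest, 4 held an ISRE core, and all 4 are shown above; Cmpk2, Herc6, Oasl2, Samd9l and Trim25 held none. Among the other 19 genes with a probe set and an entry, 7 held one. These matches describe letters in a window and are not measured binding.

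**Figure D1:**
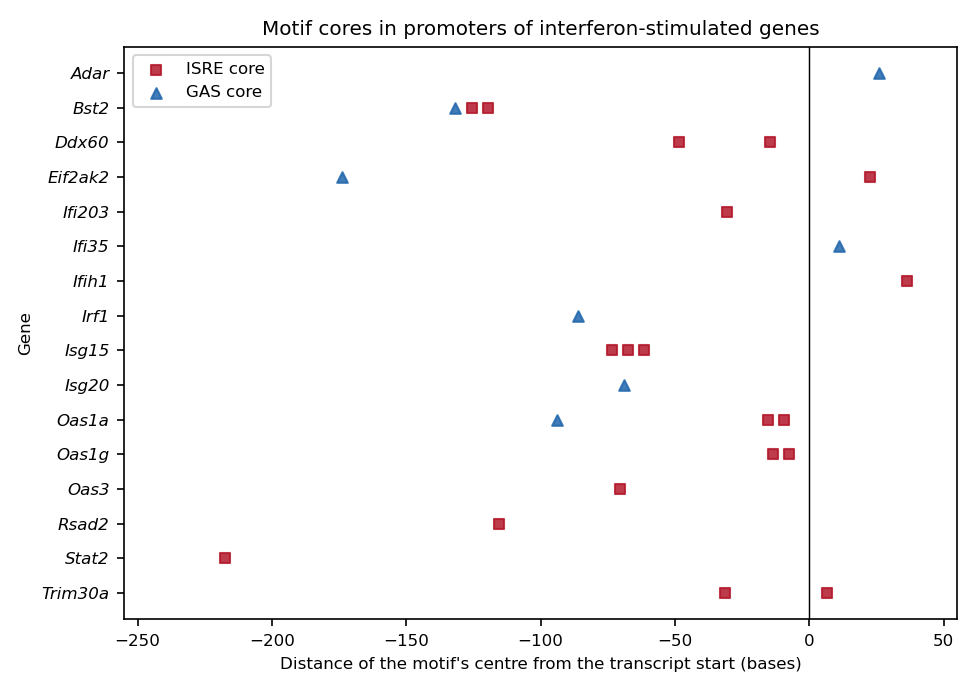
Position of each ISRE core (red squares) and GAS core (blue triangles) in the promoters of the interferon-stimulated genes that hold one, as the distance of the motif's centre from the transcript start in bases, for 1 gene per row. The 3 overlapping ISRE cores of Isg15 lie together at -78 to -57, and Rsad2 has 1 at -120 to -111.

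Signals were the deposited MAS5 values in arbitrary units, and the median of all values in the table was 583.1. A gene was represented by its brightest probe set and counted as measured in a state when both GeneChips of that state exceeded the median. By this count 21 of the 42 genes were measured in all 4 states: Adar, Dtx3l, Ifi27, Ifi35, Ifih1, Irf1, Irf7, Irf9, Isg20, Mx1, Oas1a, Oasl1, Parp12, Parp14, Parp9, Rsad2, Rtp4, Samd9l, Tor3a, Trim25 and Zbp1. A further 11 were measured in 2 or 3 states, namely Cmpk2, Ddx60, Eif2ak2, Herc6, Ifi203, Ifi27l2a, Lgals3bp, Oas2, Oasl2, Usp18 and Xaf1. Isg15, Stat2 and Trim30a were measured in Bt/Bl alone, and Dhx58 in Bt alone. Bst2, Ifi204, Mx2, Oas1b, Oas3 and Sp100 were measured in no state. Counted by state, 26 of the 42 genes were measured in GF, and likewise 26 in Bl, while 28 were measured in Bt and 35 in Bt/Bl.

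Markers of the labelled tissue were present: all 8 epithelial markers, among them Epcam, Krt8, Krt20 and Vil1, exceeded the median on every GeneChip. Their summed signal ranged from 952184 to 1420740. RNA of other cells was present too. The plasma cell gene Igha gave 113963.6 and 95693.6 in GF, above Epcam there (26021.9 and 34403.2). A pair of sex-linked genes set the GF GeneChips apart. Xist, the noncoding RNA of the inactive X chromosome, gave signals of 17157 and 22762 in GF, 3753 to 5086 in the mono-associations, and 7541 and 11176 in Bt/Bl, so Bt/Bl also lay above Bt and Bl. The Y-linked Eif2s3y gave 71.3 and 614.4 in GF against 3201 to 5657 elsewhere. These values go against an all-male GF pool, and in every comparison with GF a sex difference cannot be told apart from colonization. For the genes called between Bt/Bl and a mono-association, the adjusted p is also given without the GF GeneChips, which leaves the Xist difference between those states in place. The 3′ to 5′ signal ratio of the Gapdh control, a sign of RNA length, was 5.66 and 7.26 in GF, 8.93 to 17.6 in Bt and Bl, and 12.6 and 15.6 in Bt/Bl. That of the beta-actin control ran the other way, at 36.9 and 38.8 in GF, 21.4 to 36.3 in Bt and Bl, and 26.1 and 32.9 in Bt/Bl. Their part in the results was not tested.

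Both mono-associations left these genes near their GF levels as a group. Beside them, 13539 genes were tested in all. Of the 36 genes that passed the filter on low signals (both GeneChips of at least 1 state above the median), none was called at an adjusted p of 0.05 by limma with Benjamini-Hochberg adjustment over all 24865 probe sets tested, in Bt against GF, where 0.222% of all genes were called, or in Bl against GF, where 0.185% were. At an unadjusted p under 0.05, 3 of the 36 were higher in Bt (Ifi203, Oas1a and Rtp4; 4.67% of all genes were) and 3 were lower (Isg15, Parp12 and Samd9l; 575 of all 13539 genes were). In Bl, 3 were higher (Oas1a, Rtp4 and Stat2; 5.44% of all genes were) and 4 lower (Dhx58, Ifi27l2a, Parp12 and Samd9l; 759 of all genes were). The median log2 fold change was 0.08 in Bt and -0.04 in Bl, beside 0.01 and 0.00 over all genes tested. Without any filter, both Bt GeneChips exceeded both GF GeneChips for 10 of the 42 genes (19.6% of all genes), and both Bl GeneChips did for 9 (20.6% of all genes).

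In Bt/Bl against GF, 2 of the 36 genes rose and none fell: Rtp4 and Rsad2, both antiviral effectors. Over all 13539 genes tested, 0.133% were called higher in this comparison, and 18 genes were called lower. At an unadjusted p under 0.05, 14 of the 36 were higher and 0 lower, against 4.01% of all genes higher and 468 of all 13539 genes lower. The log2 fold change was above 0 in 35 of the 36 genes, with a median of 0.84, while 6776 of all 13539 genes were above 0 and the median was 0.00. Since a gene such as Isg15 entered the test only through its Bt/Bl signal, the same was computed without the filter. Among the 42 genes with a probe set, 38 were higher in Bt/Bl than in GF with a median of 0.61 (49.0% of all genes were higher, with a median of 0). Among the 32 whose mean log2 signal over all 8 GeneChips exceeded the median, 31 were higher with a median of 0.71. Of all genes that met this rule, 49.5% were higher, with a median of -0.006. That mean, by which the brightest probe set was also picked, includes the Bt/Bl signals and so still favours higher values there. On the log2 scale, signals under 144.7, the 25th percentile of the table, were raised to that floor.

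**Figure D2:**
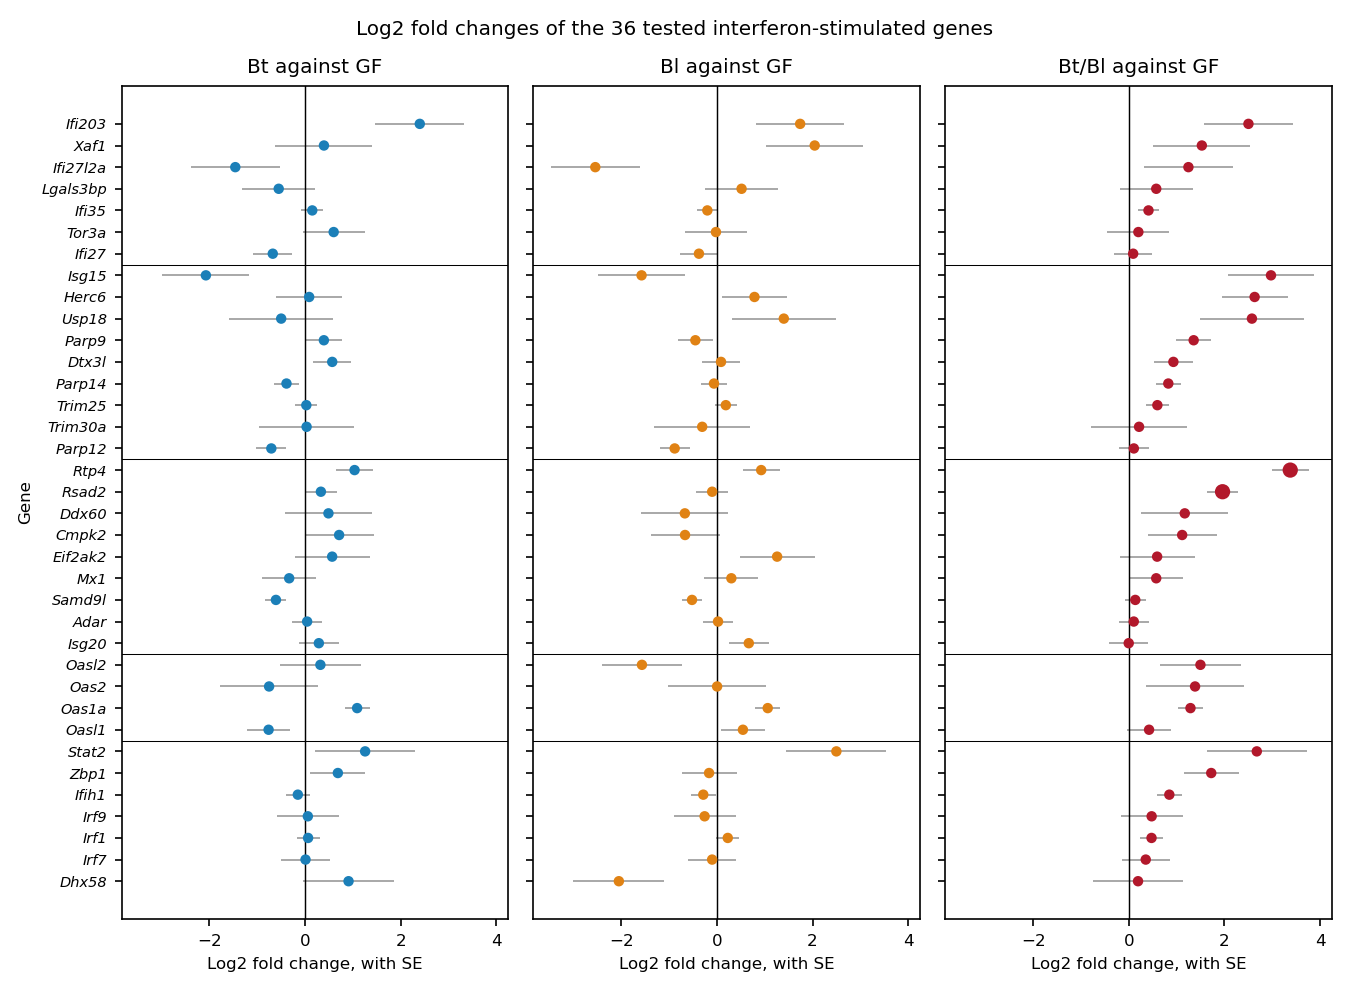
Log2 fold change (points) with its standard error (bars) of the 36 tested genes in Bt, Bl and Bt/Bl against GF, n = 2 GeneChips per state, with larger points where the adjusted p was under 0.05. Values lie on both sides of 0 in the mono-associations, whereas 35 of 36 lie above 0 in Bt/Bl, where Rtp4 and Rsad2 were called.

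The sensors and transcription factors of the list were Ifih1, Dhx58, Zbp1, Stat2, Irf1, Irf7 and Irf9, all 7 of them tested. In Bt/Bl against GF all 7 had log2 fold changes above 0, from 0.19 to 2.68 with a median of 0.48, and none was called. Of all 13539 genes tested, 6776 were above 0. Stat2, which had the value of 2.68, was tested only through its Bt/Bl signals, a condition that favours a higher value there. Zbp1, a sensor of nucleic acids in Z form, gave signals of 794.5 and 1304.7 in GF, 1809.9 and 1484.5 in Bt, 955.8 and 863.3 in Bl, then 2933.4 and 3855.8 in Bt/Bl. Both Bt/Bl signals lay above the other 6, and the log2 fold change against GF was 1.72 ± 0.58 (SE, adjusted p = 0.47 by limma). Ifih1, the cytosolic sensor of long double-stranded RNA, gave 18072.4 and 17644.2 in GF, 13216.0 to 19582.4 in Bt, 11766.4 to 18231.2 in Bl, then 34092.3 and 30253.9 in Bt/Bl. Its Bt/Bl signals were again above all others, by a log2 difference of 0.85 ± 0.26 against GF (adjusted p = 0.40).

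Stat2, a subunit of the factor that binds the ISRE, was dim. It gave 120.3 and 89.3 in GF, both at the floor, 827.3 and 57.1 in Bt, 1824.3 and 366.9 in Bl, then 879.2 and 974.5 in Bt/Bl. The paired signals of Bt lay far apart, and the Bt/Bl signals lay inside the range of Bl. The signal in Bt/Bl was at least 6.40-fold that in GF (adjusted p = 0.55), a bound set by the floor. Of the factors, Irf1 had its highest single signal, 13289.8, in Bt/Bl, and the log2 fold changes of Irf1, Irf7 and Irf9 in Bt/Bl against GF were 0.47, 0.35 and 0.48 with none called.

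Oligoadenylate synthetases make the second messenger that activates RNase L when they bind double-stranded RNA; the Oasl proteins are related to them. Of the 7 listed, Oas1a, Oas2, Oasl1 and Oasl2 were tested, Oas1b and Oas3 were not measured above the median in any state, and Oas1g had no probe set. Oas1a, the brightest, gave 19742.8 and 15900.8 in GF, 47423.7 and 30004.5 in Bt, 44681.3 and 30652.7 in Bl, then 40021.8 and 46859.8 in Bt/Bl. Both GF signals were below the other 6 and the 3 colonized states overlapped. The log2 fold change from GF was 1.09 ± 0.26 for Bt (adjusted p = 0.16), 1.06 ± 0.26 for Bl (adjusted p = 0.14) and 1.29 ± 0.26 for Bt/Bl (adjusted p = 0.070). Between Bt/Bl and the mono-associations Oas1a differed by 0.20 (95% interval -0.36 to 0.76) against Bt and 0.23 (-0.33 to 0.78) against Bl.

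Oasl2 differed from Oas1a in its order of states. It gave 918.9 and 1071.7 in GF, 1163.5 and 1321.6 in Bt, 152.8 and 731.3 in Bl, then 2138.6 and 3672.9 in Bt/Bl. Its Bt/Bl signals were the highest of the 8 and its Bl signals the lowest, with a log2 fold change of 1.498 ± 0.84 in Bt/Bl against GF (adjusted p = 0.78) and of 3.07 ± 0.84 against Bl (adjusted p = 0.19). Oas2, which lies next to Oas3 on chromosome 5, gave 2252.3 and 2293.1 in Bt/Bl, also above the other 6 signals, which ran from 151.7 to 1759.3.

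The antiviral effectors carried the called genes. Of 11 listed, 9 were tested, and 8 of the 9 had log2 fold changes above 0 in Bt/Bl against GF, with a median of 0.59. Rtp4, a chaperone of receptors in the membrane that interferon induces, gave 1473.0 and 1782.3 in GF, 2927.5 and 3773.2 in Bt, 4569.4 and 2074.4 in Bl, then 18560.2 and 15276.3 in Bt/Bl. No Bt/Bl signal overlapped any other state and both GF signals were the lowest of the 8. Rtp4 rose 10.4-fold in Bt/Bl against GF, a log2 fold change of 3.38 ± 0.38 (adjusted p = 0.00067). With the floor raised to the median of all values, the adjusted p was 0.010. Leaving out 1 GeneChip at a time kept the log2 fold change between 3.24 and 3.52, but the call held in 3 of 8 such fits, those without Bt replicate 9443, Bl replicate 9134 or Bl replicate 9135. The adjusted p ran from 0.0042 to 0.14, and it exceeded 0.05 without any 1 of the GF or Bt/Bl GeneChips.

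Rtp4 was also higher in Bt/Bl than in either mono-association. The log2 fold change was 2.34 ± 0.38 against Bt (adjusted p = 0.044; 0.0369% of all genes were called higher) and 2.45 ± 0.38 against Bl (adjusted p = 0.024; 0.0665% of all genes were called higher). Neither call held with the floor at the median (adjusted p = 0.19 and 0.13) or without the GF GeneChips (0.11 and 0.083). With 1 GeneChip left out, the call against Bt was lost in all 8 fits, and that against Bl was kept only without Bl replicate 9135 (adjusted p = 0.028). In Bt and Bl alone the log2 fold change of Rtp4 against GF was 1.04 ± 0.38 and 0.93 ± 0.38 (adjusted p = 0.37 and 0.36). A second, dim Rtp4 probe set, from 49.5 to 360.8 on the 8 GeneChips, was not tested.

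Rsad2 encodes viperin, an enzyme that makes a chain-terminating ribonucleotide. Its signals were 2908.0 and 3073.9 in GF, 3377.5 and 4193.4 in Bt, 2257.1 and 3446.4 in Bl, then 12983.4 and 10428.5 in Bt/Bl. All 6 signals outside Bt/Bl lay below both Bt/Bl signals; Bt lay above GF, and Bl overlapped both. Rsad2 rose 3.89-fold in Bt/Bl against GF, a log2 fold change of 1.96 ± 0.33 (adjusted p = 0.017; 0.064 with the floor at the median). Against Bl the log2 fold change was 2.06 ± 0.33 (adjusted p = 0.028; 0.11 with the floor at the median and 0.094 without the GF GeneChips), and against Bt it was 1.63 ± 0.33 and not called (adjusted p = 0.12). With 1 GeneChip left out, the difference from GF stayed between 1.80 and 2.12 and was called in 1 of 8 fits, without Bl replicate 9134 (adjusted p = 0.044), and that from Bl in 1, without Bl replicate 9135 (adjusted p = 0.011). The other 2 Rsad2 probe sets gave log2 fold changes of 1.25 and -0.41 in Bt/Bl against GF, neither of them called.

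Cmpk2, a mitochondrial nucleotide kinase whose gene is the neighbour of Rsad2 on chromosome 12, gave 1846.0 and 1986.4 in Bt/Bl, above a range of 514.4 to 1790.1 in the other states. Ddx60, a helicase of the same response, gave 1695.5 and 2028.2 in Bt/Bl against 255.7 to 1609.7 elsewhere. Samd9l gave 30893.4 and 30887.4 in Bt/Bl, just above the GF signals of 26884.7 and 29457.9, and lay lower in Bt (19686.0 and 17295.2) and Bl (16865.1 and 22781.4). The effectors Adar, Mx1, Eif2ak2 and Isg20 had log2 fold changes of 0.10, 0.57, 0.59 and -0.00 in Bt/Bl against GF. Bst2 and Mx2 did not pass the filter, with signals up to 333.3 for Bst2, and for Mx2 762.7 on 1 Bt/Bl GeneChip and at most 189.3 on the other 7.

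Isg15 itself was dim outside Bt/Bl. This ubiquitin-like protein, which is joined to other proteins in the interferon response, was read by 1 probe set. That probe set is shared with Gm9706, so by itself it leaves the transcript behind it uncertain. Its signals were 843.8 and 440.3 in GF, 143.0 and 100.4 in Bt, 196.2 and 212.6 in Bl, then 4689.2 and 4892.1 in Bt/Bl. The 4 states did not overlap: Bt was lowest, then Bl, then GF, with Bt/Bl above all. The paper also measured Isg15 by quantitative reverse transcriptase PCR, with primers for this gene, in RNA of the individual mice. Its average there was far higher in Bt/Bl than in Bt or Bl. The averages of Bt and Bl lay above the GF reference, unlike the order here. The paper's own GeneChip values for these pools, computed with other software than MAS5, also placed Bt and Bl above GF, and Bt/Bl highest. The order of Bt, Bl and GF here thus differs from both sets of values in the paper. The cause was not tested. Isg15 was 7.86-fold higher in Bt/Bl than in GF, a log2 difference of 2.97 ± 0.91 (adjusted p = 0.41). It was at least 33.1-fold higher than in Bt, where both signals were at the floor (adjusted p = 0.096), and 23.5-fold higher than in Bl (adjusted p = 0.11). Isg15 was tested only because both Bt/Bl signals exceeded the median, which no other state did on both GeneChips. That condition favours a higher value in Bt/Bl.

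The enzymes that act on Isg15, ubiquitin and ADP-ribose were higher in Bt/Bl than in GF in all 9 tested cases, Isg15 included. Their median log2 fold change was 0.93, while 6776 of all 13539 genes tested were above 0. At an unadjusted p under 0.05, 7 of 9 were higher, against 4.01% of all genes, and none was called after adjustment. Isg15, which is among the 7, and Trim30a, which is not, were tested only through their Bt/Bl signals. That condition favours a higher value in Bt/Bl for both. Usp18, the protease that removes Isg15 and restrains the interferon receptor, gave 1010.2 and 60 in GF, 45.3 and 505.7 in Bt, 1430.4 and 711.0 in Bl, then 2923.2 and 1776.4 in Bt/Bl. Its Bt/Bl signals were highest, but the paired GF signals lay far apart, and the log2 fold change of 2.58 ± 1.09 had an adjusted p of 0.60. Herc6, the ligase that joins Isg15 to its targets in mice, gave 420.8 and 1480.5 in GF, 1057.6 and 664.2 in Bt, 1003.3 and 1844.4 in Bl, then 5366.4 and 4459.9 in Bt/Bl. Both Bt/Bl signals exceeded all others, with a log2 fold change of 2.63 ± 0.69 against GF (adjusted p = 0.27). Of 3 further Herc6 probe sets, 1 was tested and gave -0.80.

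Parp14, Dtx3l and Parp9 lie side by side on chromosome 16, and Parp9 and Dtx3l form a complex that modifies ubiquitin. Parp9 gave 3985.4 and 4260.3 in GF, 4955.9 and 5918.3 in Bt, 1955.6 and 4642.5 in Bl, then 12173.9 and 9138.5 in Bt/Bl, a log2 fold change of 1.36 ± 0.37 in Bt/Bl against GF (adjusted p = 0.31). Parp14 gave 23050.5 and 20982.6 in Bt/Bl against 7269.2 to 13691.0 elsewhere, and Trim25, a ubiquitin ligase of the RNA sensor Rigi, gave 153111.7 and 139516.4 against 86805.0 to 119512.8. All 3 genes had both Bt/Bl signals above every other signal. Dtx3l was above both GF signals in Bt/Bl and overlapped Bt (0.93 ± 0.40 against GF, adjusted p = 0.62). In Parp12 and Trim30a the Bt/Bl and GF signals overlapped, and Parp12 lay below both in each mono-association, at 3121.7 to 4019.9 against 5384.4 to 7908.6.

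The remaining proteins of the list were Ifi27, Ifi27l2a, Ifi35, Ifi44, Ifi203, Ifi204, Xaf1, Lgals3bp, Tor3a and Sp100, of which 7 were tested and none was called. In Bt/Bl against GF their log2 fold changes ran from 0.09 to 2.50. Ifi203, a member of the Ifi200 family whose other probe sets cannot separate it from its relatives, gave 338.0 and 267.8 in GF, 1912.3 and 1321.1 in Bt, 439.7 and 2301.2 in Bl, then 1007.0 and 2886.4 in Bt/Bl. Both GF signals were lowest and the colonized states overlapped, with log2 fold changes of 2.40 ± 0.93, 1.74 ± 0.93 and 2.50 ± 0.93 (adjusted p = 0.39, 0.50 and 0.53).

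Xaf1, a proapoptotic factor, gave 701.0 and 38.0 in GF, 294.8 and 595.6 in Bt, 1420.0 and 1217.5 in Bl, then 696.5 and 1210.0 in Bt/Bl, so Bl was highest. A second Xaf1 probe set was highest in Bt/Bl instead, at 2061.8 and 3365.5 against 136.4 to 1227.5, and the probe sets of this gene therefore disagree. Ifi27l2a gave 1077.8 and 662.6 in GF, 264.6 and 356.9 in Bt, 65.5 and 65.9 in Bl, then 1327.4 and 3028.0 in Bt/Bl. As for Isg15, its states did not overlap and both mono-associations lay below GF.

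**Figure D3:**
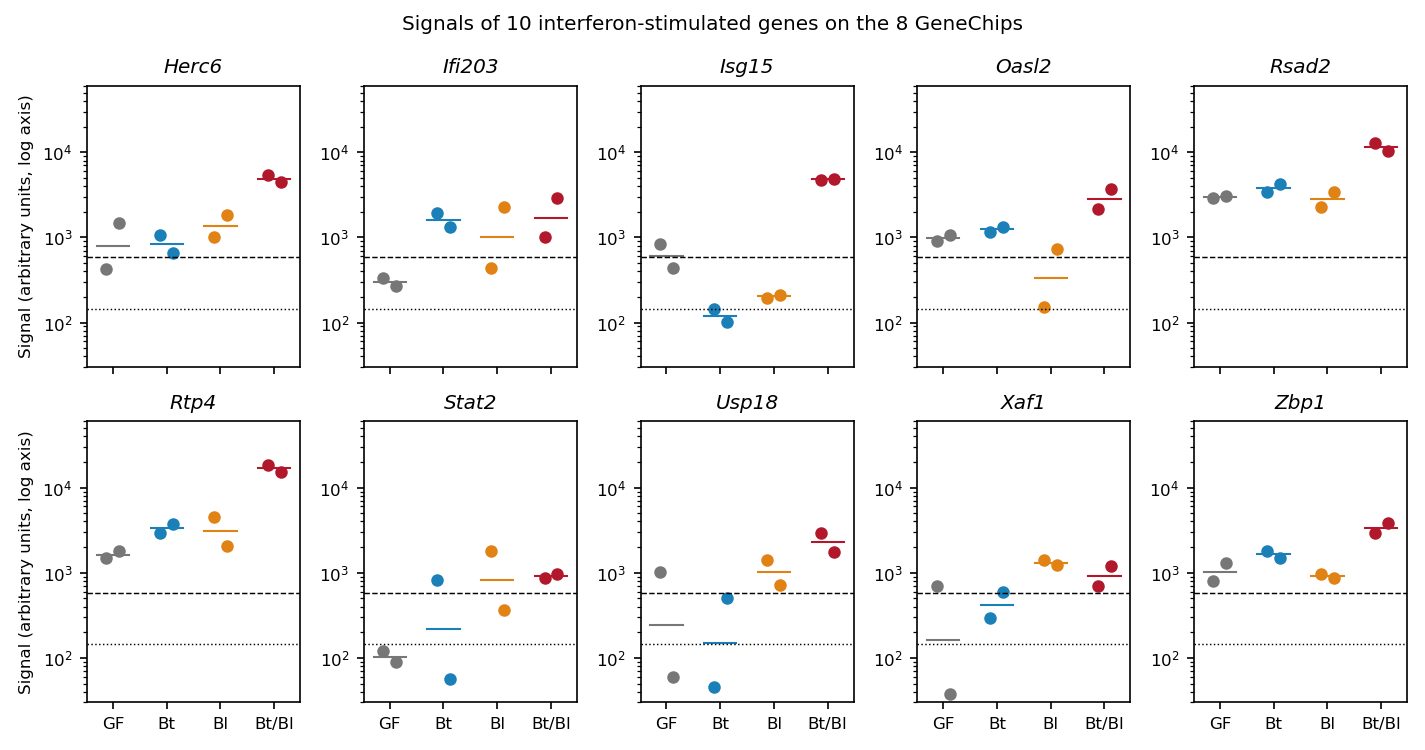
Signal in arbitrary units on a log axis of Herc6, Ifi203, Isg15, Oasl2, Rsad2, Rtp4, Stat2, Usp18, Xaf1 and Zbp1 on each of 2 GeneChips (points) per colonization state, with the geometric mean of the pair as a bar, the median of all values (583.1) as a dashed line and the floor (144.7) as a dotted line. Both Bt/Bl points lie above the other 6 for Herc6, Isg15, Oasl2, Rsad2, Rtp4, Usp18 and Zbp1, and not for Ifi203, Stat2 and Xaf1.

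The order of the 8 GeneChips was then counted over all 42 genes with no filter. Both Bt/Bl GeneChips were the highest of the 8 for 16 of the 42 genes (38.1%), against 3.87% of all genes. These 16 were Cmpk2, Ddx60, Herc6, Ifi27l2a, Ifih1, Isg15, Oas2, Oasl2, Parp14, Parp9, Rsad2, Rtp4, Samd9l, Trim25, Usp18 and Zbp1. Both Bt/Bl GeneChips exceeded both GF GeneChips for 28 of the 42 genes (66.7%), against 19.1% of all genes. Both lay below both GF GeneChips for 0, against 18.3% of all genes. No gene of the list had both GF GeneChips highest (3.45% of all genes did) or both Bt GeneChips highest (4.62% of all genes did). Both Bl GeneChips were highest for 3 genes, Eif2ak2, Isg20 and Xaf1 (7.14%, against 5.46% of all genes). The members share their GeneChips and are no replicates of one another.

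The median over the 42 genes of the log2 signal minus the gene's mean was 0.43 and 0.62 on the 2 Bt/Bl GeneChips. On the other 6 it ran from -0.30 to 0.01, and over all genes it ran from -0.04 to 0.05. The 2 Bt/Bl GeneChips thus stood apart from every other GeneChip in these genes, by more than the 2 amplifications of any pool differed, a measure that leaves out the spread between mice.

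**Figure D4:**
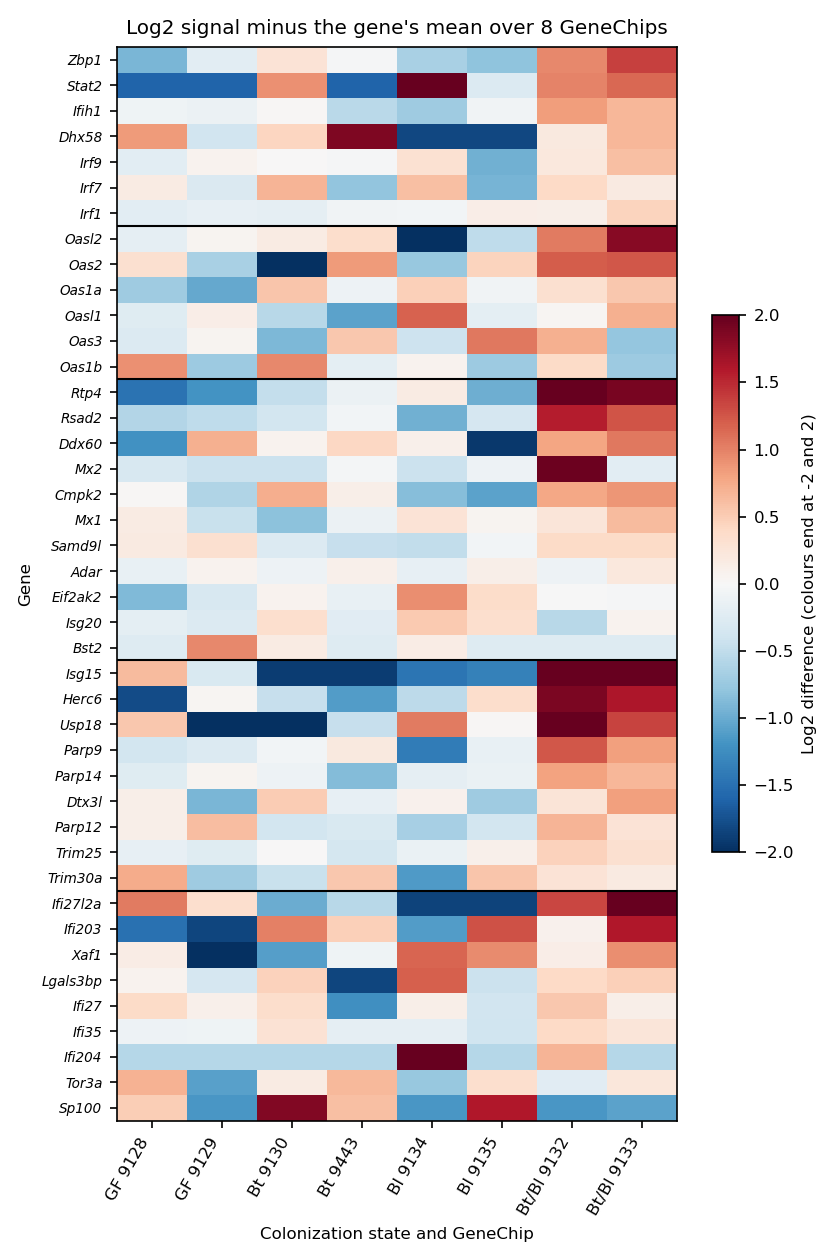
Log2 signal (floor 144.7) minus the gene's mean over 8 GeneChips for the 42 genes with a probe set, with genes in rows, GeneChips in columns and black lines between the 5 roles in the order sensors and factors, oligoadenylate synthetases, antiviral effectors, Isg15, ubiquitin and ADP-ribose enzymes, and other proteins. The Bt/Bl columns are mostly red, with medians of 0.43 and 0.62, and the Bt and Bl columns of Isg15 and Ifi27l2a are blue.

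Against each mono-association the genes showed a like shift. In Bt/Bl against Bt, 33 of the 36 tested genes had log2 fold changes above 0 (49.6% of all genes tested did), with a median of 0.79. An unadjusted p of 0.05 was passed upward by 13 (4.99% of all genes). In Bt/Bl against Bl, 32 of 36 were above 0 (50.6% of all genes tested), with a median of 0.75, and 15 passed it upward (5.72% of all genes). In both comparisons 0 genes of the list were lower at that level. Of all 13539 genes tested, 703 were lower against Bt and 768 against Bl. Isg15, Stat2 and Trim30a were tested only through their Bt/Bl signals. Without the filter, 36 of the 42 genes were higher in Bt/Bl than in Bt with a median of 0.71 (47.4% of all genes were higher). Against Bl, 34 of the 42 were higher with a median of 0.63 (47.3% of all genes). Rtp4 was the gene called against Bt, and Rtp4 and Rsad2 those called against Bl. Among genes that were not called, Ifih1, Parp14 and Parp9 were bright in all 4 states, with log2 fold changes of 0.997, 1.21 and 0.96 against Bt and 1.13, 0.89 and 1.81 against Bl. The comparisons share the Bt/Bl GeneChips and are not independent.

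Whether the change in Bt/Bl exceeded the summed log2 changes of Bt and Bl from GF was tested as an excess. No gene of the list was called, where 0.148% of all genes were, and 10 of the 36 had a positive excess at an unadjusted p under 0.05 (5.87% of all genes). These were Ifi27l2a, Ifih1, Isg15, Oasl2, Parp12, Parp14, Parp9, Rsad2, Rtp4 and Samd9l. The fitted excess was 6.63 ± 1.29 for Isg15 (adjusted p = 0.087) and 5.25 ± 1.31 for Ifi27l2a (adjusted p = 0.17). Both sizes depend on the floor, where both Bt signals of Isg15 and both Bl signals of Ifi27l2a lay, and have no order, and Isg15 was tested only through its Bt/Bl signal. The excess of Rsad2 was 1.73 ± 0.46 and that of Rtp4 1.41 ± 0.54 (adjusted p = 0.20 and 0.31). Oas1a was the 1 gene with a negative excess at that level, -0.86 ± 0.37 (adjusted p = 0.37), as had 792 of all 13539 genes.

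Of the pathway upstream of these genes, 43 ligands, receptors, kinases, sensors and inhibitors were listed and 29 were tested. No gene of it was called in Bt/Bl against GF, Bt or Bl. Of all 13539 genes tested, 18 were called higher and 18 lower against GF, 5 and 6 against Bt, and 9 and 2 against Bl. With so few calls in all, none among 29 genes says little about the pathway. The median log2 fold change in Bt/Bl against GF was 0.12, beside 0.00 over all genes tested. Socs3, an inhibitor of cytokine signalling, was the 1 gene called, higher in Bt than in GF (2.95 ± 0.44, adjusted p = 0.0062 by limma). In that comparison 0.222% of all genes were called. Socs3 gave 14698.5 and 7905.2 in Bt and 6534.4 and 5709.1 in Bt/Bl against 899.6 to 2151.1 in GF and Bl. Rigi, a cytosolic RNA sensor, gave 3593.2 and 4368.1 in Bt/Bl against 351.9 to 2093.7 elsewhere. Rigi, Cgas, Jak2 and Tyk2 were the 4 of 38 pathway genes with both Bt/Bl GeneChips highest (10.5%, against 3.87% of all genes). Of the ligands, 4 of 13 were tested. Ifnb1, which encodes interferon beta, gave 77.4 and 159.2 in Bt/Bl, below its 648.4 to 1262.1 on the other GeneChips, with a log2 fold change of -2.59 ± 0.90 against GF (adjusted p = 0.51). The receptor genes Ifnlr1 and Il10rb passed the filter.

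Some genes of the families left out of the list were high on the same GeneChips. Of 23 such genes with a probe set, 8 had both Bt/Bl GeneChips highest (34.8%, against 3.87% of all genes). In 1 of them, Gbp4, both were lowest (4.68% of all genes). Ifi47, Ifit1, Ifit1bl1 and Slfn4 were called higher in Bt/Bl against GF among 18 tested (0.133% of all genes were). The median log2 fold change of the 18 was 1.02, and 3 of them were below 0. Ifit2, Gbp3, Gbp7 and Slfn5 were tested only through their Bt/Bl signals. The difference between the 2 lists was not tested.

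Markers of other cells were set beside these values. The summed signal of 5 T cell markers was 1191 and 1302 in Bt/Bl, below its range of 2049 to 5067 in the other states. Much of it came from a Cd8a probe set, at 2508.8 and 1613.7 in Bt and 3392.4 and 1399.8 in Bl. In Bt/Bl against Bt its log2 fold change was -2.20 and that of Cd3d -2.59. The other tested Cd8a probe sets gave 0.48, 0.59 and 0.70 there, so the probe sets of Cd8a disagree. Against Bl all tested Cd8a probe sets were below 0, from -2.31 to -0.71. That of macrophage and dendritic cell markers was 12502 and 12985 in Bt/Bl, inside the range of 8430 to 17958 elsewhere, with most of it from Csf1r (8081.4 and 6966.5 in Bt/Bl). Itgax of the same list gave 1559.9 and 757.5 in Bt/Bl against 338.7 and 256.1 in GF (log2 fold change 1.88 ± 1.09, adjusted p = 0.79). The other tested markers of that list, Itgam, Csf1r, Lyz2 and Adgre1, had log2 fold changes of 0.12, 0.04, -0.13 and -0.61 in the same comparison. The sum of pan-leukocyte markers was 4273 and 2789 in Bt/Bl, inside 1837 to 5810. Cd3e, Cd3g, Cd4, Cd79a, Cd68, Siglech and Coro1a did not pass the filter. The part of other cells in the results was not tested. The B and plasma cell sum, nearly all of it Igha, was 57283 and 40905 in Bt/Bl, between GF (124655 and 108713) and both mono-associations (13602 to 31434). Igha, the heavy chain of IgA, was called lower in Bt/Bl than in GF and higher than in Bt (log2 fold changes of -1.34 and 1.71), and Igha and Jchain were called for the excess (3.68 and 3.77). The fibroblast sum was 13650 and 13197 in Bt/Bl against 29119 and 21579 in GF, 17667 and 22099 in Bt, and 9804 and 12007 in Bl. Smooth muscle markers summed to 4319 and 5189 in Bt/Bl against 4310 to 12633 elsewhere, and endothelial markers to 1044 and 1773 against 345 to 3415.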

How the data were processed

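RNA of laser-captured cecal epithelium was hybridized to 8 Mouse 430 2.0 GeneChips. The authors deposited linear signal intensity values made with MAS5, each GeneChip scaled to a trimmed mean of 1500.01; the version is not given in the sources used here. Probe sets were named from the platform annotation. Promoters on chromosome 18 were not used here. No member was used from the second, glycan-gene GeneChip. Signals below the 25th percentile of all values (144.7) were set to it and log2 was taken; probe sets with both GeneChips of 1 state above the median (583.1) were kept, without controls (24865 probe sets of 13539 genes), and 6 comparisons were fitted in 1 model with limma 3.58.1 (R 4.3.3, eBayes with an intensity trend, 4 residual degrees of freedom), with Benjamini-Hochberg adjustment and a threshold of 0.05. The fit was tested on simulated data. With 2 GeneChips a state, an exact permutation test cannot go below p = 0.333. The number of GeneChips limits the precision. Every gene called, Isg15, Zbp1 and the 10 largest differences in Bt/Bl against GF are given in full; other genes given in full were chosen after their values were seen. The members and lists were chosen with earlier results of these data known. Alternatives were other scalings, floors and filters, no trend, fewer GeneChips, any probe set of a gene and each GeneChip left out; leaving out both GF GeneChips was added after seeing the data.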

Additional observations from a re-analysis of the deposited data

How the results depend on the processing

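All medians kept their direction in Bt/Bl comparisons under the alternatives run, whereas the calls of single genes often did not hold. With 2 amplifications of 1 pool a state, p-values say nothing of the spread between mice, and dim genes are limited by the floor. Of 2 genes called in Bt/Bl against GF, 2 were called with quantile normalization, no floor, the filter at the 75th percentile or any probe set of a gene counted, 1 with scaling to the same median or 75th percentile or the floor at the median, and 0 with no filter, no intensity trend or only the GeneChips compared. Of 1 called against Bt, 0 remained under each of the 10 alternatives other than counting any probe set, the fit without both GF GeneChips included. Of 2 called against Bl, 2 were called with no floor or any probe set of a gene counted, 1 with scaling to the same median or 75th percentile, and 0 with quantile normalization, the floor at the median, no filter, the filter at the 75th percentile, no intensity trend, only the GeneChips compared or without both GF GeneChips. Leaving out each GeneChip in turn, where the lone GeneChip of a state is assumed to vary like the others, gave 0 to 2 calls against GF, 0 to 1 against Bt, 0 to 5 against Bl (5 without Bl replicate 9135), 0 to 3 for the excess (3 without Bl replicate 9135), 0 to 1 for Bl against GF (1 without Bl replicate 9135) and 0 for Bt against GF. The median log2 fold changes then ran from 0.71 to 0.88 against GF, 0.65 to 0.79 against Bt, 0.67 to 0.83 against Bl, 0.50 to 1.12 for the excess, 0.06 to 0.21 for Bt and -0.042 to 0.17 for Bl against GF. Scaling to the same median or 75th percentile shifted all genes too, so each median is given with that of all genes. With the same median it was -0.13 (all genes -0.20) for Bt and -0.39 (-0.36) for Bl against GF, 0.95 (0.15) against Bt, 1.04 (0.32) against Bl and 1.38 (0.51) for the excess. With the same 75th percentile it was -0.11 (-0.17) for Bt and -0.30 (-0.27) for Bl against GF, 0.97 (0.23) against Bl and 1.28 (0.41) for the excess. In Bt/Bl against GF it was 0.63 with the floor at the median and 0.61 with no filter; for the excess it was 0.63 with no filter and 1.17 with the filter at the 75th percentile. No called value reversed; the median of Bt against GF, near 0, changed sign under both of these scalings, and that of Bl against GF when GF replicate 9128, Bl replicate 9134 or Bl replicate 9135 was left out. The causes were not tested. No paired analysis was possible because the groups share no replicate number.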
